A study of Mus musculus with 4 samples.

Results

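The 10 genes described here encode the core of the cytotoxic granule of natural killer (NK) cells: granzymes A, B, K and M (Gzma, Gzmb, Gzmk, Gzmm), perforin (Prf1), the proteoglycan serglycin (Srgn), the serpins Serpinb9 and Serpinb6b, the granule membrane protein Nkg7 and cathepsin C (Ctsc). They were taken by symbol from a deposited table of 37305 rows with 33924 different symbols, and all 10 were found, each on 1 row. The values are FPKM (fragment numbers divided by transcript length and by library size), so levels can be set beside each other per transcript length. All 10 reached the minimum mean of 1 FPKM and were among the 12275 rows tested.

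Primary NK cells were prepared from spleens of C57BL/6 mice aged 56 days. All of them first spent 24 hours with 50 ng/ml of recombinant murine IL-15, which keeps NK cells alive and primes their granules. The control group then received a mock treatment and the other group DKK2 at 200 ng/ml, each for 24 hours more, and 2 libraries were made per group. DKK2 (Dickkopf 2) is a secreted ligand of LRP5 and LRP6, co-receptors for Wnt proteins, and the comparison asks how it alters NK cell transcripts. The labels name no genotype, sex or sorting markers, and do not say whether the 2 libraries of a group came from separate mice or cultures, so p-values cover no more than the spread among 4 libraries, and that spread may be technical.

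As background, an NK cell kills by emptying granules onto its target. Perforin opens the target membrane and lets in granzymes, serine proteases that set off cell death. Granzymes are made as inactive precursors that cathepsin C trims, they are packed on serglycin, and serpins in the cytosol protect the killer from its own leaked proteases. In mouse NK cells, IL-15 is known to turn stored granzyme B and perforin transcripts into protein.

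The summed level of 6 NK markers was 2170 and 1651 FPKM in the controls and 2776 and 1777 FPKM with DKK2. Ncr1, the NK receptor NKp46, stood at 303 and 193 FPKM in control libraries and 389 and 197 FPKM in DKK2 libraries. Itga2, the integrin CD49b, was the lowest of the 6, between 6.05 and 9.77 FPKM. Transcripts of monocytes, neutrophils and basophils were also present and were scarcest in control replicate 1. Summed monocyte and macrophage markers (8 genes) were at 8.24 FPKM in that library and at 213, 661 and 355 FPKM in control replicate 2, DKK2 replicate 1 and DKK2 replicate 2. Lyz2, C1qa, C1qb and C1qc were highest in DKK2 replicate 1, and Csf1r, Cd68, Adgre1 and Cd14 in DKK2 replicate 2. Lyz2 alone was at 0.889, 142, 552 and 209 FPKM in control replicates 1 and 2 and DKK2 replicates 1 and 2. Summed neutrophil markers (7 genes) were at 1.04, 61.4, 3357 and 119 FPKM in the same order. In DKK2 replicate 1, S100a8 and S100a9 held nearly all of that sum (1737.8 and 1582.5 FPKM), and Ngp came next at 22.8 FPKM. Summed basophil and mast cell markers (4 genes) were at 4.08, 150, 146 and 180 FPKM. Read totals are not given, but steps between low values put the depth of the 3 libraries other than control replicate 1 at 0.351 to 0.401 of that library's.

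Granzymes A and B were among the most abundant messages of these cells in every library. Of 10132 protein-coding rows tested, Gzma ranked 1 or 2 in each library and Gzmb between 1 and 3. Gzma alone made up 1.78% and 2.65% of all protein-coding FPKM in the controls and 4.46% and 2.35% with DKK2. The 10 genes together held 4.64% and 5.34% in the controls and 6.32% and 4.26% with DKK2. The DKK2 libraries thus held both the highest and the lowest share.

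By mean level the order was Gzma (14910 FPKM), Gzmb (8615 FPKM), Nkg7 (1340 FPKM), Prf1 (915 FPKM), Srgn (628 FPKM), Serpinb9 (392 FPKM), Serpinb6b (319 FPKM), Ctsc (125 FPKM), Gzmk (24.9 FPKM) and Gzmm (1.53 FPKM). Some neighbours in this order were not separated over the 4 libraries: the ranges of Gzma and Gzmb overlapped, as did those of Prf1 and Srgn and those of Serpinb9 and Serpinb6b. The range of every other gene lay wholly above that of the next gene in the order. Nkg7, which is needed for full granule release, cleared Prf1 only narrowly, with a lowest value of 1217 FPKM against a highest Prf1 value of 1207 FPKM.

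**Figure D1:**
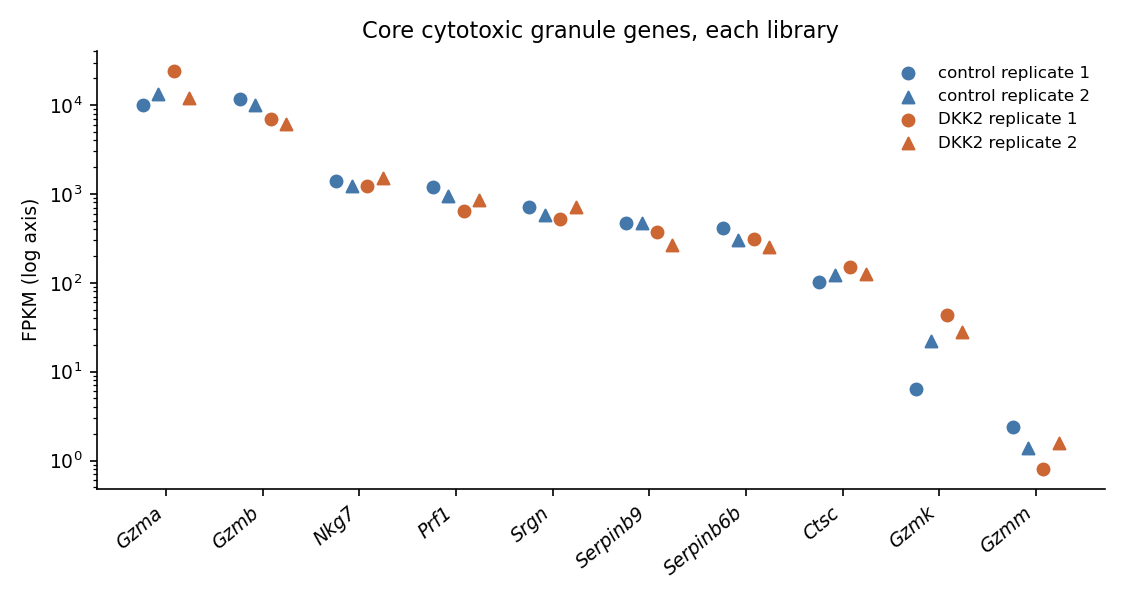
FPKM (log axis) of the 10 granule genes in each of the 4 libraries, ordered by mean level; blue points are controls, orange points DKK2, circles replicate 1 and triangles replicate 2. Gzma and Gzmb lie between 6115 and 24308 FPKM, and Gzmk and Gzmm stand far below the other members.

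None of the 10 genes passed the test of DKK2 against control, limma with Benjamini-Hochberg adjustment over all 12275 rows (adjusted p = 0.9996 for each), a fit in which 0.0326% of rows were called. None reached an unadjusted p under 0.05 in this limma fit either, where 1.84% of all rows did. In the fit, 6 members were lower and 4 higher with DKK2, beside 56.4% and 43.6% of all rows. Their median difference in log2(FPKM + 1) was -0.21, and that of all rows tested was -0.052. Both DKK2 libraries lay below both controls for Gzmb, Prf1 and Serpinb9, 3 of 10 members beside 14.8% of all rows. They lay above both controls for Gzmk and Ctsc, 2 of 10 beside 11.8% of all rows. Groups that did not overlap, in either direction, were thus found for 5 of 10 members beside 26.5% of all rows. For Gzmb, Prf1, Serpinb9 and Ctsc the difference between groups was larger than the gap between the libraries of either group, 4 of 10 beside 15.6% of all rows. The members were chosen with earlier results of these data known, and the median is given as a description.

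Granzyme B, which cleaves targets after aspartate and activates caspases, lay lower in both DKK2 libraries. Gzmb was at 11543 and 9908 FPKM in control libraries and 6895 and 6115 FPKM in DKK2 libraries. The groups did not overlap, and the 2 libraries within each group were close to each other. The DKK2 mean was 0.607 of the control mean, a difference of -0.72 ± 0.39 in log2(FPKM + 1) (standard error, SE, of limma's fit; 95% interval -1.74 to 0.30; n = 2 libraries per group; limma adjusted p = 0.9996). The difference was -0.74 between the replicate 1 libraries and -0.70 between the replicate 2 libraries. Differences between same-numbered libraries, here and below, are descriptions, since the numbers were not taken as pairs. The Gzmb difference stayed between -0.83 and -0.61 when any single library was left out.

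Perforin showed the same order of groups with less separation. Prf1 was at 1207 and 955 FPKM in control libraries and 649 and 851 FPKM in DKK2 libraries. Control replicate 2 and DKK2 replicate 2 lay nearest to each other. The difference was -0.53 ± 0.33 (95% interval -1.38 to 0.31; limma adjusted p = 0.9996), with -0.89 between the replicate 1 libraries and -0.17 between the replicate 2 libraries. NK markers and markers of other cells both varied between the libraries (the sums given earlier), and their part in the Gzmb and Prf1 levels was not tested. In a bulk sample, fewer cells of a type and less RNA per cell cannot be told apart.

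Granzyme A, a trypsin-like protease, stood highest in a single DKK2 library. Gzma was at 9890 and 13351 FPKM in control libraries and 24308 and 12092 FPKM in DKK2 libraries. DKK2 replicate 2 lay between the controls, so the groups overlapped. The difference was 0.58 ± 0.55 (95% interval -0.83 to 1.99; limma adjusted p = 0.9996), and without DKK2 replicate 1 it was 0.074. In DKK2 replicate 1 the summed NK markers, and each of them but Itga2, were also at their highest. Itga2 was at its lowest there (6.05 FPKM). Total FPKM over all rows was also highest in DKK2 replicate 1, at 1.27e+06. It was 1.08e+06 and 1.07e+06 in the controls and 8.91e+05 in DKK2 replicate 2. A higher total raises the NK marker sum and Gzma alike. The parts of this total and of NK cell content in the Gzma level were not tested.

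The promoters of Gzmb and Prf1, whose levels were lower in both DKK2 libraries, are shown beside that of Gzma, the most abundant member. Each line gives the 250 bases before the RefSeq start of the gene (build GRCm38.p6, on the gene's strand, 5′ to 3′). Gzmb lies at chr14:56262335-56262584 on the minus strand, Prf1 at chr10:61297586-61297835 on the plus strand and Gzma at chr13:113100982-113101231 on the minus strand. Capitals mark matches to a RUNX hexamer, TGTGGT or its reverse complement ACCACA. The nearest GENCODE M21 start was 74 bases from the RefSeq start for Gzmb, 3 bases for Prf1 and 0 bases for Gzma.
Gzmb: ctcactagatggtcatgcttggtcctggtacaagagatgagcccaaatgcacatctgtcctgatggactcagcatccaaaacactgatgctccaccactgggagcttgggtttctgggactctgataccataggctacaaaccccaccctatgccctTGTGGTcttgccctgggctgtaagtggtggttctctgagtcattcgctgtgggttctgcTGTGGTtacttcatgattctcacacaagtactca
Prf1: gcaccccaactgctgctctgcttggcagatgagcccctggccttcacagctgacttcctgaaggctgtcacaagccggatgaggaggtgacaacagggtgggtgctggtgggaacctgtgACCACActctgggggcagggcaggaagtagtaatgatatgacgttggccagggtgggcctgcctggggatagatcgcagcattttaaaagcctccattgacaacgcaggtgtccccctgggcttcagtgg
Gzma: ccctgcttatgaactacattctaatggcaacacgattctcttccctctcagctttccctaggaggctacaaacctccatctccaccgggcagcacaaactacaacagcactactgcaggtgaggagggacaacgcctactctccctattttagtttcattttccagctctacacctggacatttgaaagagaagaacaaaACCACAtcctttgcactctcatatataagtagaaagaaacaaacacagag

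RUNX factors are known to act at cytotoxic genes in T and NK cells. The Gzmb window held the hexamer at 93 and 34 bases before the start, the Prf1 window at 130 bases and the Gzma window at 50 bases. Over both strands it was present in 6 of the 12 windows that RefSeq lists for the 10 genes (Srgn and Gzmm have 2 each) and in 14.0% of all 32851 promoter windows of the same length. The windows with a match belonged to Gzma, Gzmb, Prf1, Nkg7, Srgn and Gzmm. The T-box core GGTGTG, searched the same way, was in 6 of 12 windows (Nkg7, Ctsc, Gzmm, Serpinb6b, Serpinb9 and Gzmk) and in 16.3% of all. The STAT palindrome TTCNNNGAA was in 3 of 12 (Nkg7, Ctsc and Gzmm) and in 7.02% of all, and no match overlapped a match of another motif. A match is a run of letters, and binding was not measured.

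Ratios inside a library do not change when all its values are multiplied by the same factor. Quantile normalization is not of this kind, and the ratios were not taken under it. Gzma to Gzmb was 0.857 and 1.35 in the controls and 3.53 and 1.98 with DKK2, so Gzma was the larger message in 3 of 4 libraries. Both DKK2 libraries lay above both controls. The log2 ratio differed by 1.30 (SD 0.46 in the controls and 0.59 with DKK2, n = 2 each). The exact two-sided permutation p was 0.333 (Benjamini-Hochberg adjusted p = 1 over 3 ratios). That p is the smallest that 2 against 2 libraries can give, so this test could not reach 0.05. The difference in log2 ratio ranged from 0.88 to 1.71 when single libraries were left out.

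The ratios of Gzmb to its partners varied less. Gzmb to Prf1 was 9.56 and 10.4 in the controls and 10.6 and 7.19 with DKK2 (log2 difference -0.19, exact permutation p = 1). Without DKK2 replicate 2 that difference was 0.093. Gzmb to Serpinb9, protease to inhibitor, was 24.8 and 21.3 in the controls and 18.7 and 22.8 with DKK2 (log2 difference -0.15, exact permutation p = 0.667). The groups overlapped in both of these ratios.

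**Figure D2:**
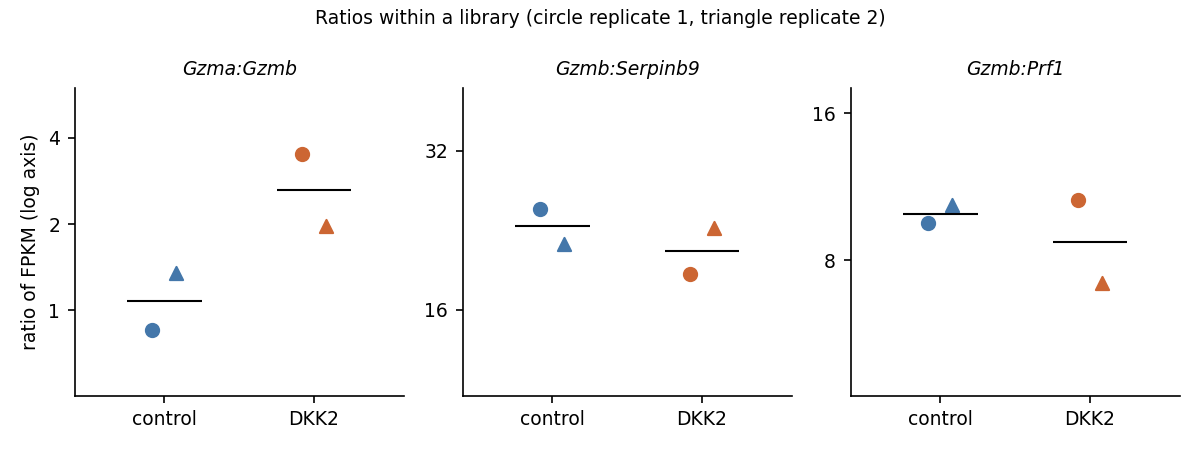
Ratios of FPKM within each library (log axes) for Gzma to Gzmb, Gzmb to Serpinb9 and Gzmb to Prf1; circles are replicate 1, triangles replicate 2, and bars the group means of the log2 ratio. Gzma to Gzmb is at 0.857 and 1.35 in the controls and 3.53 and 1.98 with DKK2, and the groups overlap in the other panels.

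Serpinb9, the inhibitor of granzyme B, was at 466 and 464 FPKM in control libraries and 369 and 268 FPKM in DKK2 libraries. The controls were nearly equal and both DKK2 libraries lay below them, with a difference of -0.56 ± 0.30 (95% interval -1.33 to 0.21; limma adjusted p = 0.9996). Its profile over the 4 libraries was close to that of Gzmb: the distance between the centred log2(FPKM + 1) profiles (square root of the summed squared gaps) was 0.30, the second smallest of 36 pairs among the 9 members whose mean was 10 FPKM or more. The closest pair was Srgn and Nkg7 (0.18), and the farthest Gzmb and Gzmk (2.57). Serpinb6b, an inhibitor of granzyme A, was at 410 and 302 FPKM in control libraries and 312 and 251 FPKM in DKK2 libraries. Its groups overlapped narrowly, through control replicate 2 and DKK2 replicate 1 (difference -0.33 ± 0.31, limma adjusted p = 0.9996).

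The packing and membrane components had the smallest differences between groups. Serglycin, the proteoglycan scaffold of the granule, had its gene Srgn at 717 and 573 FPKM in control libraries and 517 and 703 FPKM in DKK2 libraries. Nkg7 was at 1413 and 1217 FPKM in control libraries and 1217 and 1516 FPKM in DKK2 libraries. In both genes the groups overlapped, and the differences were -0.089 ± 0.32 for Srgn and 0.051 ± 0.32 for Nkg7. The 95% intervals, -0.92 to 0.75 and -0.78 to 0.88, leave room for changes of either sign.

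Cathepsin C, the protease that trims granzyme precursors, lay slightly above the controls with DKK2. Ctsc was at 102 and 122 FPKM in control libraries and 151 and 124 FPKM in DKK2 libraries, and the groups were separated by only the small gap between the replicate 2 libraries. The difference was 0.29 ± 0.27 (95% interval -0.40 to 0.98; limma adjusted p = 0.9996). With the libraries brought to equal medians, the number of members above both controls was 1, beside 1742 of 12275 rows. Myeloid cells also express Ctsc and Srgn. Of the 8 monocyte and macrophage markers tested, 8 were lowest in control replicate 1, as Ctsc was; C1qa and C1qc were listed at 0 there. Srgn, in contrast, was highest in control replicate 1. Their part in the Ctsc level was not tested.

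**Figure D3:**
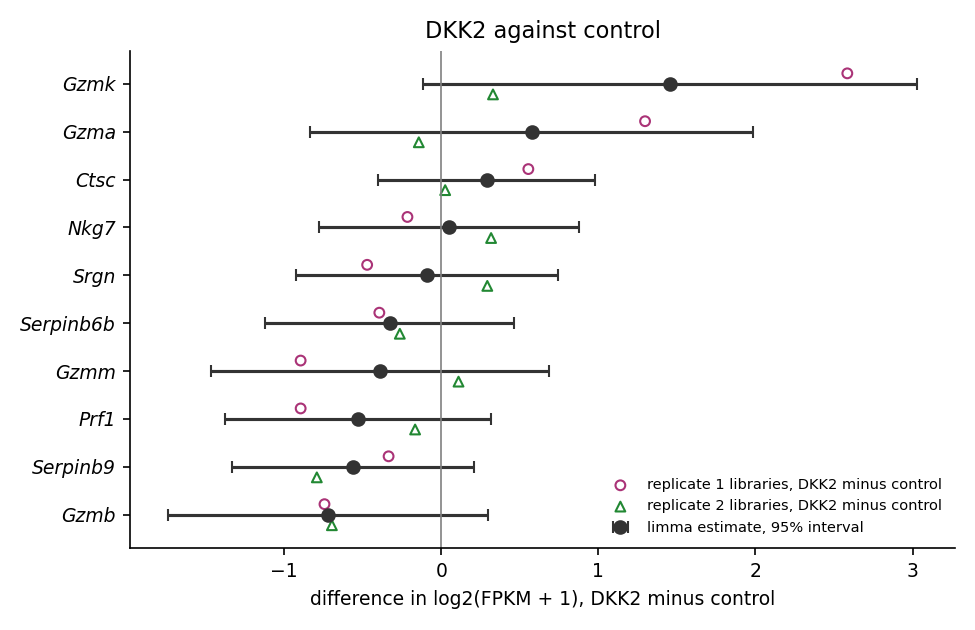
Difference in log2(FPKM + 1), DKK2 minus control, for each member: filled points with bars are limma's estimate and 95% interval, open circles the replicate 1 libraries alone and open triangles the replicate 2 libraries alone. Every interval includes 0, and the open symbols lie far apart for Gzmk (2.58 and 0.33) and close together for Gzmb (-0.74 and -0.70). Same-numbered libraries were not taken as pairs.

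Granzyme K, a tryptase better known from T cells, had the largest spread among the 10 genes. Gzmk was at 6.32 and 22.1 FPKM in control libraries and 42.9 and 28.1 FPKM in DKK2 libraries. Both DKK2 libraries lay above both controls, but the controls differed from each other by 1.66 in log2(FPKM + 1), more than the 1.46 ± 0.61 between the groups (95% interval -0.12 to 3.03; limma unadjusted p = 0.063, adjusted p = 0.9996). Without control replicate 1 the difference was 0.63, and without control replicate 2 it was 2.29. The replicate 2 libraries alone differed by 0.33.

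Among 7138 other genes at a mean of 10 FPKM or more, those with the profile nearest to Gzmk were Smpdl3a (distance 0.23), Cd3g (0.23) and Cd3d (0.27), against a median distance of 2.08. Cd3g and Cd3d encode chains of the CD3 complex of T cells. All 6 T cell markers tested, of 8 listed, were lowest in control replicate 1. The summed level of the 8 was 28.7 and 130 FPKM in the controls and 225 and 179 FPKM with DKK2. Cd3g held most of this sum in every library. The listed markers other than Cd3g and Cd3d were each highest in DKK2 replicate 2. Cd8a and Cd8b1 were listed at 0 in control replicate 1. Cd3e, the remaining CD3 chain listed, was farther from Gzmk (distance 1.37, rank 173) and highest in DKK2 replicate 2, at 0.601 and 14.0 FPKM in the controls and 17.4 and 20.4 FPKM with DKK2. The co-receptor genes did not follow Cd3g and Cd3d into DKK2 replicate 1, where Gzmk was highest. Cd3g was at 23.1, 87.3, 169 and 117 FPKM in control replicates 1 and 2 and DKK2 replicates 1 and 2. Cd8a was at 0, 2.26, 0.385 and 2.97 FPKM in that order, and Cd4 at 0.00566, 1.59, 0.234 and 2.95 FPKM. In DKK2 replicate 1 both co-receptors were thus below their levels in control replicate 2. The part of T cells in the Gzmk level was not tested.

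**Figure D4:**
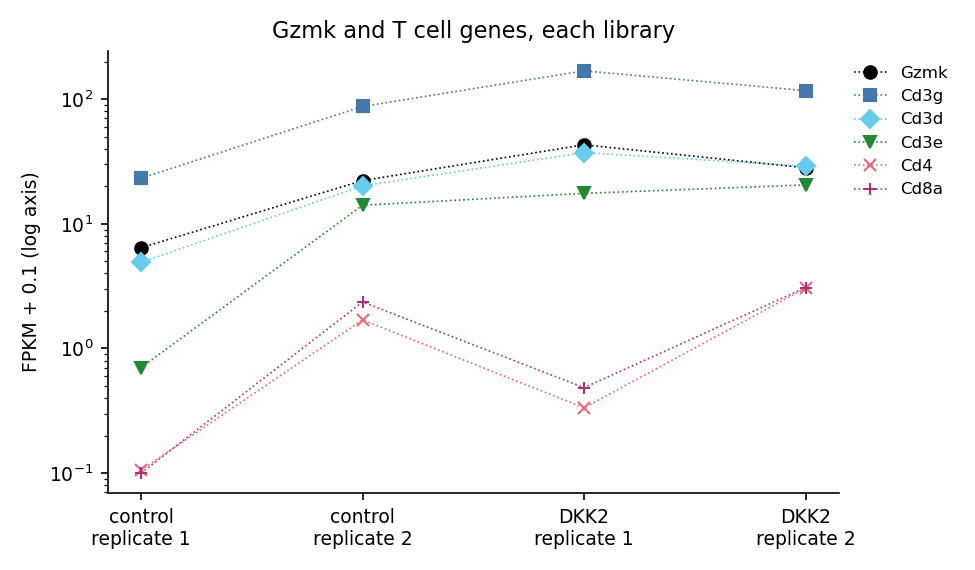
FPKM plus 0.1 (log axis) of Gzmk, 3 CD3 chain genes, Cd4 and Cd8a in each library; dotted lines only join the points of a gene. Gzmk, Cd3g and Cd3d share 1 order of libraries with a peak in DKK2 replicate 1 (42.9 FPKM for Gzmk), where Cd4 and Cd8a are at 0.234 and 0.385 FPKM.

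For the abundant granzymes the nearest profiles came from other kinds of gene. Nearest to Gzma were the cyclin genes Ccnl1 (distance 0.093) and Ccnh (0.10) and the adaptor gene Nck1 (0.12), all highest in DKK2 replicate 1. Nearest to Gzmb were the pseudogene Gm12611 (0.067), the splicing regulator gene Mbnl1 (0.076) and Shmt1 (0.080), an enzyme gene of folate metabolism. With 4 libraries a near profile is a description, and many genes can share it.

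Granzyme M was barely present. Gzmm was at 2.36 and 1.38 FPKM in control libraries and 0.807 and 1.57 FPKM in DKK2 libraries, and it ranked between 8903 and 9979 among the protein-coding rows. From the worth of 1 fragment and a transcript of 1287 bases, these values stand for about 161, 31.0, 21.9 and 42.5 fragments, so counting error alone is between 7.88% and 21.4% of a value (1 SD). The groups overlapped (difference -0.39 ± 0.42, limma adjusted p = 0.9996).

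The make-up of the granzyme pool differed between replicates as well as between groups. Gzma made up 43.6% and 48.6% of summed granzyme FPKM in the controls and 76.3% and 55.8% with DKK2, while Gzmb made up 50.9% and 36.1% in the controls and 21.6% and 28.2% with DKK2. Most of the rest came from granzymes C to G, proteases encoded beside Gzmb, whose share was 5.44% and 15.3% in the controls and 1.93% and 15.8% with DKK2. Gzmc, the main one, was at 1052 and 3597 FPKM in control libraries and 506 and 3123 FPKM in DKK2 libraries, high in both replicate 2 libraries. Of the 5 tested genes of that cluster, 0 passed limma (0 at an unadjusted p under 0.05), and these near-identical genes may share fragments.

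**Figure D5:**
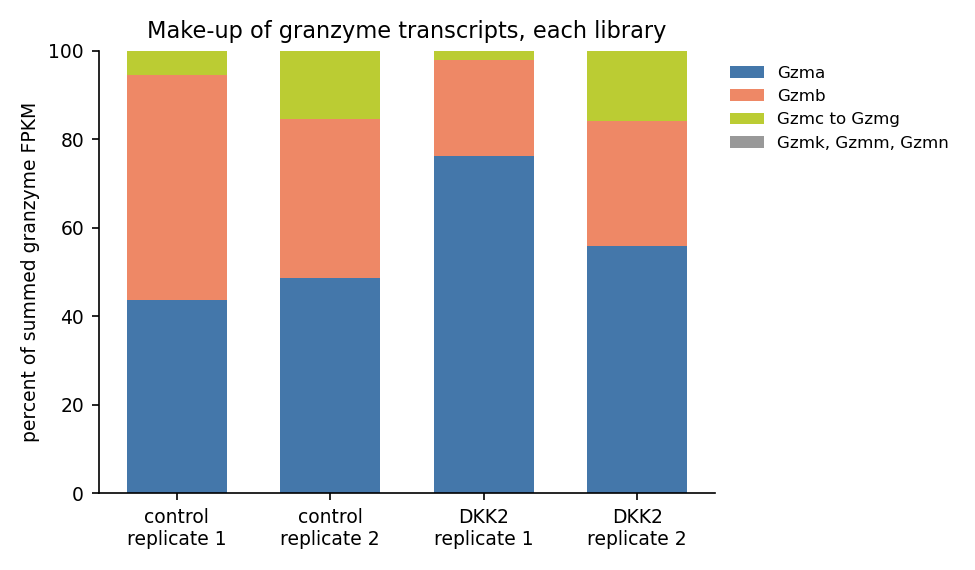
Percent of summed granzyme FPKM held by Gzma, Gzmb, Gzmc to Gzmg, and the remaining granzymes (Gzmk, Gzmm and Gzmn) in each library. The Gzma share is 43.6% and 48.6% in the controls and 76.3% and 55.8% with DKK2, and the share of Gzmc to Gzmg is high in both replicate 2 libraries (15.3% and 15.8%).

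Other genes of the granule pathway were read from lists. Of 46 genes tested in the lists that follow, 0 passed limma (adjusted p = 0.9996 for each; 0.0326% of all rows passed). An unadjusted p under 0.05 was found for 1 of the 46, Ctsb, beside 1.84% of all rows. Of 17 genes of granule transport, docking and fusion 16 were tested (Vamp7 was not analysed here), and 11 were lower and 5 higher with DKK2 (median -0.12). Those with the largest differences were Dock8, an actin regulator (-0.47 ± 0.43), the kinesin gene Kif5b (-0.42 ± 0.25), the SNARE gene Vamp2 (0.39 ± 0.23) and the Rab27 effector gene Sytl1 (-0.36 ± 0.47). Of these, Kif5b had both DKK2 libraries below both controls and Vamp2 had both above.

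Of 13 genes for cathepsins, cystatin F, other serpins and granule proteins, 9 were higher and 4 lower (median 0.13). The largest differences were in cathepsin H (Ctsh, 3.34 ± 1.86), cathepsin L (Ctsl, 1.38 ± 0.80), cathepsin B (Ctsb, 1.14 ± 0.42) and Serpinb1a (0.97 ± 0.40), an inhibitor of neutrophil proteases. All of these were lowest in control replicate 1, where Ctsh was at 0.209 FPKM against 63.7 FPKM in control replicate 2, and monocyte and neutrophil markers were lowest in the same library. The part of those cells was not tested.

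Transcription factors of cytotoxic lymphocytes were spread around 0, with 8 of 12 higher and 4 lower (median 0.065). Runx1 had the largest difference, at 13.7 and 12.3 FPKM in the controls and 9.48 and 10.7 FPKM with DKK2 (-0.34 ± 0.25). Next came Prdm1, which encodes Blimp-1 (0.21 ± 0.29), Nfil3 (0.21 ± 0.29) and Stat4 (0.18 ± 0.26). Among the IL-15 receptor chains and their kinases, the signalling chain Il2rb was at 629 FPKM in DKK2 replicate 1. It was between 1182 and 1506 FPKM in the other libraries (-0.56 ± 0.45). The common chain Il2rg had both DKK2 libraries above both controls, at 724 and 743 FPKM against 555 and 622 FPKM (0.32 ± 0.28). Il15ra (0.51 ± 0.28) was also above both controls, while Jak1 (-0.042 ± 0.32) and Jak3 (-0.11 ± 0.59) overlapped.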

How the data were processed

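RNA from 4 libraries of mouse splenic NK cells, 2 control and 2 DKK2, was read as FPKM values that the authors deposited in 1 table, named for RPKM but headed FPKM per the file headers. The tools listed in the submitters' processing notes, without roles, are TopHat2 2.1.0, CASAVA, edgeR and Cuffdiff 2.1.0, and the build is mm9; annotation, strand use and treatment of multiply mapped fragments are not given in the sources used here. Each of the 4 value columns matched a sample by name. Values were taken as log2(FPKM + 1), which understates differences of low genes. Rows with a mean of at least 1 FPKM were fitted with limma 3.58.1 in R 4.3.3 (lmFit, eBayes with trend, two-sided). P-values were adjusted by Benjamini-Hochberg over 12275 rows, with a threshold of 0.05. The fit was first run on simulated data, and the outcome of that run is not given. Within-library ratios were compared by exact permutation (SciPy 1.17.1). Biotypes came from GENCODE M21 by symbol (96.2% of rows tested), fragment worth from low values of genes with 1 transcript, and promoters from RefSeq GRCm38.p6 by symbol; all 10 matched. These references are of another build than mm9 and were used by symbol. Alternatives covered pseudocount, filter, scaling, trend, replicate block and leaving out each library.

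All members are named; from the other granule lists, at most 4 tested genes with the largest absolute difference, with all open to naming in lists of up to 6. Marker lists are given by their sums. Of the markers set out as defining, Ncr1, Cd3g, Cd3e, Lyz2 and S100a8 are named. The other markers in the text were named after their values were seen (Itga2, Cd4, Cd8a, Cd8b1, Csf1r, Cd68, Adgre1, Cd14, C1qa, C1qb, C1qc, S100a9, Ngp, Itgax, Siglech, Flt3 and Xcr1). The 3 genes nearest in profile to Gzma, Gzmb and Gzmk are named. Members and lists were chosen with earlier results of these data known. Lists covered granzymes C to G, protease handling, granule release, transcription factors, the IL-15 axis and markers of NK, T, B, monocyte, neutrophil, basophil and dendritic cells. B cell markers summed to 0.64 and 19.0 FPKM in the controls and 4.51 and 31.7 FPKM with DKK2, and dendritic cell markers to 34.2, 12.3, 28.2 and 23.4 FPKM. Itgax alone held 34.0, 10.2, 26.3 and 21.6 FPKM of the dendritic cell sums. The other dendritic cell markers, Siglech, Flt3 and Xcr1, stayed under 1 FPKM and were lowest in control replicate 1. The listed Adgre1 was found under its older symbol Emr1, and 1 further monocyte marker, outside the 8 summed, is not reported here.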

Additional observations from a re-analysis of the deposited data

How the results depend on the processing

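No member passed limma in the main analysis or in any of 13 alternatives. Unadjusted p-values under 0.05 in limma, none in the main analysis, were reached by Gzmb with quantile normalization (0.015) and without the trend (0.046), by Gzmk with the filter at 10 FPKM (0.043), with the replicate block (0.042) and without control replicate 2 (0.012, adjusted p = 0.518), and by Serpinb9 without DKK2 replicate 1 (0.045). Of 129 member values under these alternatives, 124 kept their direction and 5 turned: Nkg7 was at -0.054 with quantile normalization, -0.057 without control replicate 2 and -0.11 without DKK2 replicate 2, and Srgn at 0.072 without control replicate 1 and 0.13 without DKK2 replicate 1 (over the single libraries left out, -0.11 to 0.21 for Nkg7 and -0.31 to 0.13 for Srgn). Quantile normalization moved Gzmb to -1.01 and Gzma to 0.13. Gzmm could not be fitted with the filter at a mean of 10 FPKM. The number of rows called by limma over the whole table was 4, against 8 with a replicate block, 0 with no filter on low values (949 at an unadjusted p under 0.05) and 0 without any single library (141 to 865 at an unadjusted p under 0.05); the cause was not tested. The fit with the replicate block kept every member uncalled. Replicate differences in the controls and with DKK2 were nearly uncorrelated across 12275 rows (correlation of 0.012), so the replicate numbers were not taken as pairs. That value describes all rows and cannot show whether some genes share a replicate difference. Gzmc to Gzmg and the B cell sum were each higher in replicate 2 of both groups. Gzmk was higher in replicate 2 of the controls but in replicate 1 with DKK2. The cause of these replicate differences was not tested. Members below both controls numbered 3. They numbered 4 with quantile normalization and with equal totals without the top 10 rows, beside 1713 and 1822 of 12275 rows. With single libraries left out they numbered 3 to 6. There were 6 without control replicate 2, beside 4617 of 12243 rows, and 5 without DKK2 replicate 2, beside 5113 of 12161 rows. Members above both controls numbered 2, against 1 with equal medians, beside 1742 of 12275 rows. They numbered 3 when any single library was left out, beside 2776 to 4019 rows of the 12161 to 12282 tested. With fewer libraries, separation is easier to reach. The members' median of -0.21 lay between -0.40 and -0.018 when single libraries were left out. The Gzmb to Prf1 ratio difference lay between -0.47 and 0.093 in the same fits. With 2 libraries a group, intervals of the members are wide, and depth limits Gzmm alone among them.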
